A study of Mus musculus with 2 samples.

Results

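Natural killer (NK) cells were taken from the single-cell transcriptomes of Cd45+ cells of B16-F10 melanomas, a transplantable mouse skin tumor, grown in Irg1+/+ and Irg1-/- mice. They were chosen by UMIs (unique molecular identifiers, which count captured mRNA molecules) of 10 lineage genes and 3 complement genes, and they numbered 688 of the 12078 cells kept from 2 libraries. Each library was 1 pool of 100 mm3 tumor pieces from 3 mice of 1 genotype, taken on day 10 after subcutaneous injection of 200000 tumor cells. Irg1-/- mice lack Irg1 (Acod1), the enzyme that makes itaconate, in every cell of the body. The Irg1-/- line had been backcrossed onto C57BL/6J, and the mice were female. Their age is given as 8 to 10 weeks for the subcutaneous tumor model and as 6 to 10 weeks for the study as a whole. With 1 library per genotype there were no replicates: no test between the genotypes was possible, every 95% interval below covers counting error only, and genotype cannot be told apart from pool, sort or library.

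NK cells are innate lymphocytes that kill stressed, infected or transformed cells by releasing perforin and granzymes. They read their targets through germline-encoded receptors, among them the Ly49 family (Klra genes), which mostly bind major histocompatibility complex (MHC) class I molecules, and activating receptors such as NKp46 (Ncr1) and NKG2D (Klrk1). Mouse NK cells mature from a Cd27-positive stage to a stage with high CD11b (Itgam), along which Il7r and Kit are lost and Klrg1 is gained, while Eomes and T-bet (Tbx21) set their identity.

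Acod1 did not tell the libraries apart. In NK cells it had 21 UMIs in the library labelled Irg1+/+ and 32 in the library labelled Irg1-/-, which is 35.9 (22.2 to 54.8) and 25.9 (17.7 to 36.5) CPM (counts per 1000000 of the UMIs summed over the NK cells of a library). Over all other kept cells it was 88.5 and 111 CPM, higher in the library labelled Irg1-/-. What the allele removes was not given in the sources used here, and counts from the 3′ end of an mRNA may lie outside a deletion, so this gene does not check the labels. The number of barcodes in each file is the number of cells the study lists for that genotype, which ties the files to the study's own names for the libraries. Every direction below therefore rests on the labels, and of each pair of values the first belongs to the library labelled Irg1+/+.

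An NK cell had at least 3 UMIs over Ncr1, Klrb1c, Klre1, Klra8, Klra4 and Eomes, at most 1 UMI over Cd3d, Cd3e, Cd3g and Trac, at most 2 UMIs over C1qa, C1qb and C1qc, and under 10% of its UMIs in mitochondrial genes. From each pool 6000 cells had been sorted, and the files held 6408 and 5896 barcodes, of which 6284 and 5794 were kept. The NK clause alone took 646 and 1036 cells. The T cell clause then removed 339 and 414 of them and the C1q clause 88 and 153 more, which left 219 and 469 NK cells. Since these values chose the cells, what follows on the 6 NK genes of the rule is description. Klrb1c (NK1.1) had a UMI in 82.6% and 80.8% of the cells, Klre1 in 78.1% and 83.2%, Ncr1 in 60.7% and 57.8%, Eomes in 52.1% and 57.4%, Klra8 (Ly49H) in 46.1% and 54.6%, and Klra4 (Ly49D) in 48.9% and 48.6%. All 6 genes were found in 7.76% and 9.59% of the cells, and 4 and 5 cells passed on 1 gene alone.

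The edges of the rule were not sharp. At 3 UMIs of the NK genes there were 14 and 26 cells, of which 78.6% and 88.5% had a UMI of Gzma (granzyme A, which the rule did not use). At 2 UMIs, just outside, there were 23 and 51 cells, of which 60.9% and 70.6% had one. The 37 and 51 cells with 2 UMIs of the Cd3 genes and Trac, just outside, held Gzma in 81.1% and 92.2%. In cells with 1 such UMI it was in 89.6% and 98.7%. Gzma was at 5037 and 10671 CPM in the former and 7976 and 9076 in the latter. Cells with 3 UMIs of the C1q genes, also outside, held Gzma in 90.6% and 96.7%, against 88.4% and 96.1% of cells with 2. Their Gzma was at 7333 and 10737 CPM against 8413 and 8586, and they were deeper, with medians of 3480 and 3317 against 2771 and 3059 UMIs. Of the 36 barcodes present in both libraries, 0 and 5 were NK cells, and none was an NK cell in both. No doublet caller was run. The NK cells held 585503 and 1236552 UMIs outside the mitochondrial genes, with medians of 2556 and 2518 UMIs and 1414 and 1393 genes per cell, so the cells of both libraries were read to nearly the same depth.

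Markers outside the rule were mostly higher in NK cells than in other gated cells, which is a description and not a test of the label. For comparison, T cells were gated on at least 3 UMIs of the Cd3 genes and Trac, macrophages on at least 10 UMIs of the C1q genes and B cells on at least 3 UMIs of Cd79a, Cd79b and Ms4a1, each with at most 1 UMI of the NK genes. All 23 NK markers outside the rule had a CPM at least 1.5-fold higher in NK cells than in T cells and than in B cells of the same library, as had 21 and 22 of the 23 against macrophages. The gates of these groups had set the NK genes low, which bears on markers found with them. No such count was made against CD8 T cells alone. Gzma had 8026 (7798 to 8258) and 9873 (9698 to 10049) CPM in NK cells, 843 and 600 in CD8 T cells, 81.9 and 169 in macrophages, and 34.9 and 125 in B cells. Prf1, the pore-forming perforin, had 539.7 and 657 CPM in NK cells and 164 and 104 in CD8 T cells. Other genes were shared with a second lineage. The chemokine gene Ccl5 had 5797 and 7988 CPM in NK cells and 6437 and 4426 in CD8 T cells, and the adaptor Tyrobp (DAP12) had 1617 and 1794 CPM in NK cells and 1548 and 1503 in macrophages. Cd3e was down to 32.5 and 24.3 CPM and C1qa to 59.8 and 49.3, against 830 and 857 CPM of C1qa in macrophages, but the rule had set these 2 genes.

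**Figure D1:**
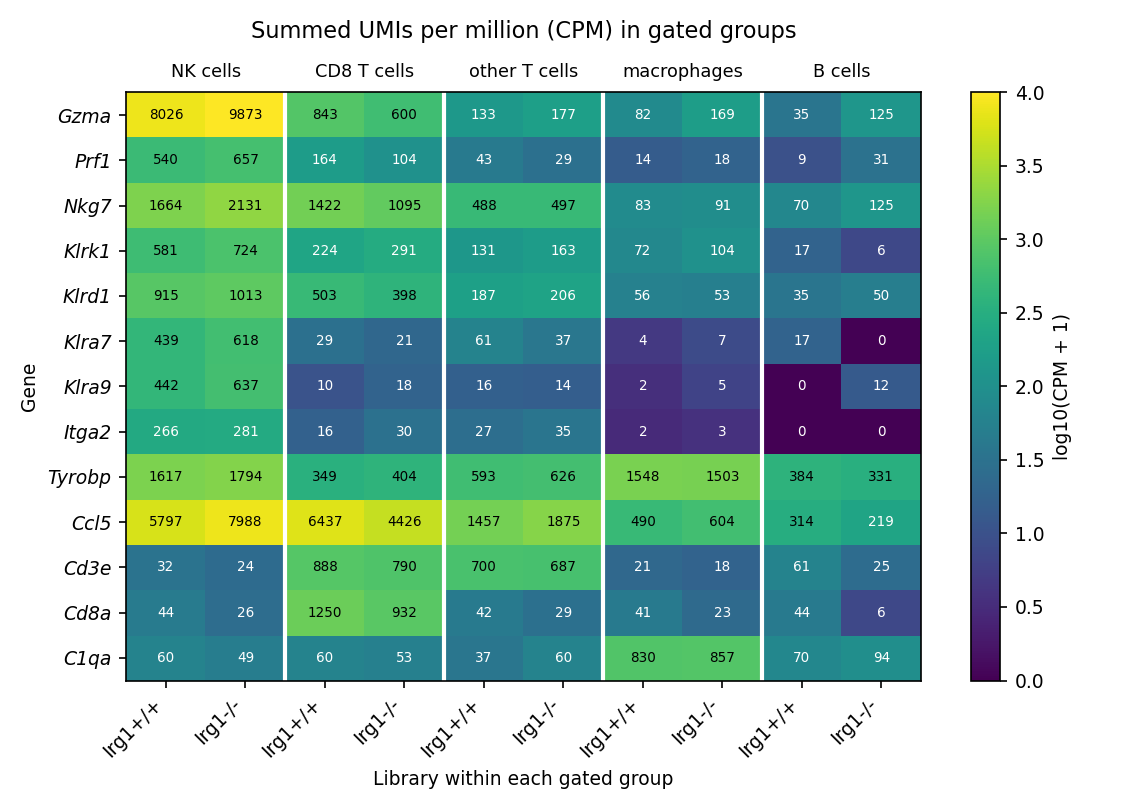
CPM (summed UMIs per 1000000, printed in each box and colored as log10 of CPM + 1) of 13 genes in 5 gated groups of cells of each library. Gzma is at 8026 and 9873 CPM in NK cells and at most 843 in the other groups, while Ccl5 is shared with CD8 T cells and Tyrobp with macrophages. Cd3e, which the rule used, is at 32.5 and 24.3 CPM in NK cells and 888 and 790 in CD8 T cells.

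Cells outside the NK gate also held Gzma, and the source of these UMIs was not tested. With every cell thinned to 2000 UMIs, which left 172 and 347 NK cells and set aside 47 and 122 shallower ones, Gzma was detected in 91.3% and 95.4% of NK cells, 22.8% and 30.3% of T cells, 14.7% and 26.7% of macrophages and 6.90% and 21.7% of B cells. Without thinning it was in 93.6% and 97.9% of NK cells. Before thinning, the median depth was 6583 and 7329.5 UMIs in macrophages and 2327.5 and 2393 in B cells. Ncr1 was detected at this depth in 51.2% and 52.2% of NK cells, 0.195% and 0.766% of T cells and in none of the 29 and 46 B cells, but the gates of all these groups used it.

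Set against all other kept cells, as a description, the highest ratios outside the rule's genes, by the lower of the 2 libraries, included several NK receptor genes and the granule genes Rab27b and Gzma. All other cells, here and in later ratios, included cells with at least 3 UMIs of the NK genes. The T cell clause had removed 339 and 414 of these from the NK gate, and the C1q clause 88 and 153. Of 3961 genes found in at least 10% of the NK cells of each library, the first was Rab27b, a small GTPase of granule transport, with a log2 ratio of 4.68, followed by the Ly49 gene Klra9 (4.43), the activating receptor gene Klrc2 (NKG2C; 4.29), the lectin receptor gene Klri2 (4.26), the integrin Itga2 (CD49b; 4.25), Gzma (4.20) and Klrb1a (4.20). The next were the kinase-like gene Styk1 (4.19), Klrb1f (4.15), Klra7 (4.13), Qrfp (4.04), the signaling inhibitor Spry2 (3.95), the carbonic anhydrase Car2 (3.92), Samd3 (3.89) and Adamts14 (3.87). Cuedc1 (3.80), Camk2n1 (3.62), Klra3 (3.57), Emid1 (3.56) and Dab2ip (3.54) closed the first 20. Of the markers of type 2 and type 3 innate lymphoid cells, Il17a, Il22, Il23r and Il17rb had no UMI in NK cells of either library, where 3 counts would be 5.12 and 2.43 CPM, and of that list only Gata3 had enough UMIs to be measured (87.1 and 82.5 CPM).

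The sequences just upstream of these genes were searched for motifs of factors that act in lymphocytes, and the 3 shown are those of the defining receptor Ncr1, of Gzma and of Klrc2. Of the 26 genes formed by these 20 and the 6 of the rule, 21 had a promoter in the RefSeq table (GRCm38.p6). Within the 250 bases before the annotated start, the Runx motif TGTGGT, on either strand, was found for 9 of 21 genes (42.9%) and for 15.9% of the 27025 genes in the table. The Ets letters CCGGAA, on either strand, were found for 3 of 21 (14.3%) against 13.6%, and the T-box letters GGTGTGA for 1 of 21 (4.76%) against 3.84%. Several of the 21 genes belong to the Klra and Klrb1 families and are close copies, so they are not independent. The Runx and T-box letters can share bases where they meet, which did not happen in the sequences shown. Each sequence is written 5′ to 3′ on the strand of the gene, with the Runx letters, or their reverse complement ACCACA, in capitals. They lie at chr7:4337474-4337723 on the plus strand (Ncr1), chr13:113100982-113101231 on the minus strand (Gzma) and chr6:129660557-129660806 on the minus strand (Klrc2).
Ncr1: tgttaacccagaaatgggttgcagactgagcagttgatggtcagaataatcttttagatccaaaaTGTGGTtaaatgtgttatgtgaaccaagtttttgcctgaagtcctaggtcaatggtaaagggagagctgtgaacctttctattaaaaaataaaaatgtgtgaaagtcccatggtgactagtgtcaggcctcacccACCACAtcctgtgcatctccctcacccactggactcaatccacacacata
Gzma: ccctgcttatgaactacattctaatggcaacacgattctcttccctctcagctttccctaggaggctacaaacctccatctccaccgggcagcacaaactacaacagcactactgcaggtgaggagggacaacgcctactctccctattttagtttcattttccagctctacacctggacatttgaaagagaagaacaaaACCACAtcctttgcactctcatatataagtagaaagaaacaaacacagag
Klrc2: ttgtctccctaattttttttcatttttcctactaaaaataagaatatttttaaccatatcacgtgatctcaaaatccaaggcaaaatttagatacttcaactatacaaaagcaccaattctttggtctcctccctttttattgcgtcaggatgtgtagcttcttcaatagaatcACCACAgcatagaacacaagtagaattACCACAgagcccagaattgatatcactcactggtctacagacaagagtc
Ncr1 and Klrc2 each held 2 matches and Gzma 1, and none of the 3 held the Ets or the T-box letters. A match describes letters and is not a bound site.

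NK cells were a larger share of the library labelled Irg1-/-. They were 219 of 6284 kept cells, 3.49% (3.05 to 3.97), and 469 of 5794, 8.09% (7.4 to 8.83), a difference of 4.61 points (3.78 to 5.45) and a ratio of 2.32. Gated T cells went the other way, with 692 cells or 11.0% and 385 cells or 6.64%, so that NK cells were 24.0% (21.3 to 27) of NK and T cells together in the one library and 54.9% (51.5 to 58.3) in the other. CD8 T cells were 2.90% and 1.78% of kept cells and macrophages 5.43% and 7.70%. The sort was on Cd45 alone, so a share also depends on how many other leukocytes entered each pool, and fewer T cells raise the NK share of lymphocytes without more NK cells. The size of the share followed the clauses of the rule. It was 1.00% and 2.57% when no C1q UMI was allowed and 4.89% and 10.7% with no C1q clause, but the ratio between the libraries stayed between 1.99 and 2.79 under every setting tried.

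**Figure D2:**
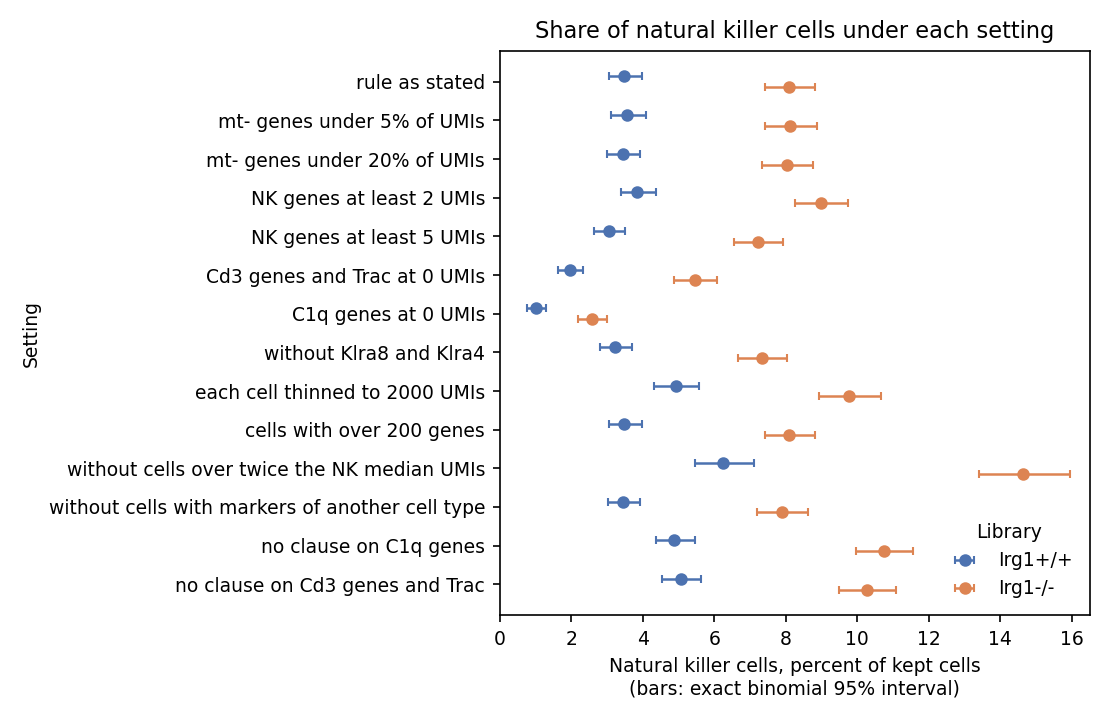
Share of NK cells among kept cells (x axis, percent) in each library (blue, Irg1+/+; orange, Irg1-/-) under the stated rule and 13 other settings, with exact binomial 95% intervals that cover counting error only. The orange point lies to the right of the blue one in each of the rows, from 2.57% against 1.00% with the C1q genes at 0 UMIs to 14.6% against 6.24% without cells over 2 times the NK median UMIs, a setting that lowers the kept cells to 3397 and 3081.

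Within NK cells most genes lay close to the diagonal. Of the 7910 genes whose NK cells held 20 UMIs or more when the libraries were added, 613 were at least 1.5-fold higher in the library labelled Irg1-/- (7.75%) and 749 at least 1.5-fold lower (9.47%), with a median log2 ratio of -0.04. In counts simulated at the depths of these 2 libraries, 11.8% of 7689 genes given no difference lay past 1.5-fold in one direction or the other. Scaling by TMM factors moved all ratios by 0.06 and gave 713 higher and 634 lower, and DESeq2's size factors moved them by 0.08 and gave 817 and 600, so the split between higher and lower genes depends on the scale. No gene of the 87 measured for ribosomal proteins lay past 1.5-fold. Lists of genes, some of which share members, are read below against the shares of all measured genes (7.75% and 9.47%), with no test. Of the lists with at least 10 measured genes, those with the largest shares past 1.5-fold lower were the immature NK list (46.7%), the T cell markers and the cell cycle (33.3% each), the checkpoint and costimulatory genes (31.25%), the ILC1 markers of type 1 innate lymphoid cells (30.8%) and glycolysis (27.3%). The largest share past 1.5-fold higher was that of the type I interferon response (28.6%).

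**Figure D3:**
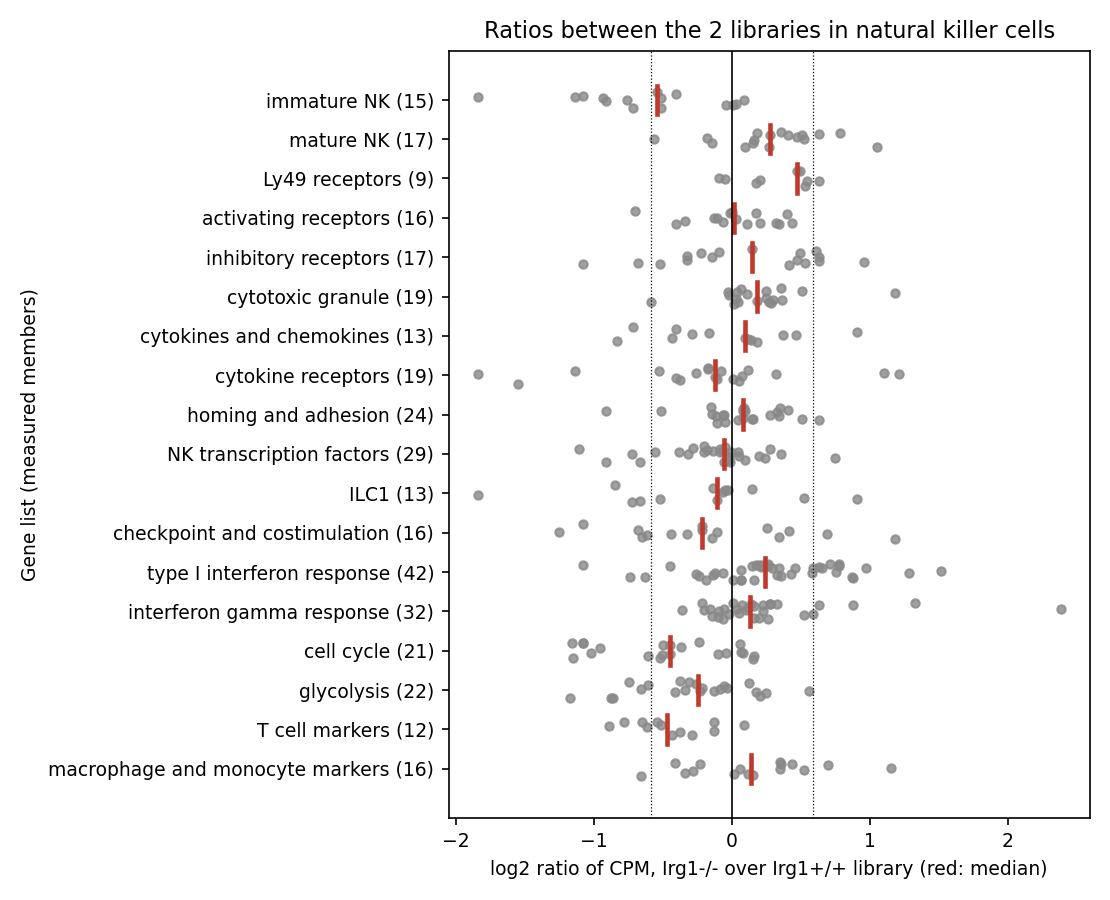
Log2 ratio of CPM in NK cells, the library labelled Irg1-/- over that labelled Irg1+/+, for each measured gene (point) of 18 lists, with the list median as a red bar and dotted lines at 1.5-fold. The immature NK list has its median at -0.55 and no gene beyond the right line, while the mature NK list (0.28) and the type I interferon list (0.24) are centered to the right of 0.

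Some genes of the immature NK stage were lower in the library labelled Irg1-/-. Of 15 measured genes 7 lay past 1.5-fold lower and none higher, beside 9.47% and 7.75% of all genes, with a median log2 ratio of -0.55; the median was -0.08 in T cells, 0.00 in macrophages and -0.16 in all other cells. Il7r, the receptor chain for interleukin-7 (chr15:9505788-9530176), had 302 (259 to 350) and 84.1 (68.7 to 102) CPM, a log2 ratio of -1.84 (-2.21 to -1.49), where T cells had 0.12. Tcf7, which encodes the transcription factor TCF-1 (chr11:52252371-52283014), had 374 (326 to 427) and 199 (175 to 225) CPM, a ratio of -0.91 (-1.18 to -0.64) against 0.39 in T cells. Cd27, the costimulatory receptor that marks the early stage (chr6:125232622-125237010), had 227 (190 to 269) and 119 (100.4 to 139.7) CPM, a ratio of -0.93 (-1.28 to -0.58). Unlike the first 2 genes, Cd27 was also lower in T cells (-0.58) and macrophages (-1.02).

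The adhesion protein gene Emb (chr13:117208536-117274415) had 1298 and 767 CPM, a ratio of -0.76 (-0.90 to -0.62), while in T cells and in macrophages it was -0.03 and 0.00. Kit, the stem cell factor receptor, was at -1.14 (-1.77 to -0.51), Ltb (lymphotoxin beta) at -1.08 (-1.73 to -0.43) and Xcl1, a chemokine that draws cross-presenting dendritic cells, at -0.72 (-0.89 to -0.55). These counts were smaller for Kit, with 46 and 44 UMIs, and Ltb, with 42 and 42. Other genes of the list hardly differed: Ly6e had 1693 and 1697 CPM and Thy1 399.7 and 387. The T cell marker list was also lower, with a median of -0.47, 4 of 12 measured genes past 1.5-fold lower and a summed 1851 and 1448 CPM, of which Trbc1 had the most, 666 and 512; T cells had 8726 and 7844. Cd3g belongs to both lists. In the 40 and 101 NK cells with no UMI of the Cd3 genes, Trac or the C1q genes, the median of the immature list was -0.68.

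Of the 17 measured genes of the mature stage 3 (17.6%) were past 1.5-fold higher and none lower, beside 7.75% and 9.47% of all genes. Their median was 0.28, beside 0.07 in T cells and 0.15 in both macrophages and all other cells. Itgam (chr7:128062640-128118491) had 278 (237 to 325) and 395 (361 to 432) CPM, a ratio of 0.50 (0.25 to 0.77), and -0.30 in T cells. Klrg1, an inhibitory lectin receptor (chr6:122270596-122282882), had 83.7 and 130.2 CPM, a ratio of 0.63 (0.17 to 1.13), and the calcium-binding protein gene S100a4 208 and 359, a ratio of 0.78 (0.49 to 1.09). Cma1, a chymase gene (chr14:55941451-55944675), had 61.5 (43.1 to 85.1) and 129 (109 to 150) CPM, a ratio of 1.05 (0.53 to 1.63). It was higher in T cells (2.50) and in all other cells (1.66) too, as Ly6c2, which is also a monocyte marker, was in macrophages (1.32) beside 0.52 in NK cells. Lgals3 (galectin-3) went against the list, with 758 and 514 CPM and a ratio of -0.56 (-0.74 to -0.38), and S1pr5, the receptor by which mature NK cells leave the marrow, had 16 and 31 UMIs and a ratio of -0.15 (-1.04 to 0.84).

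**Figure D4:**
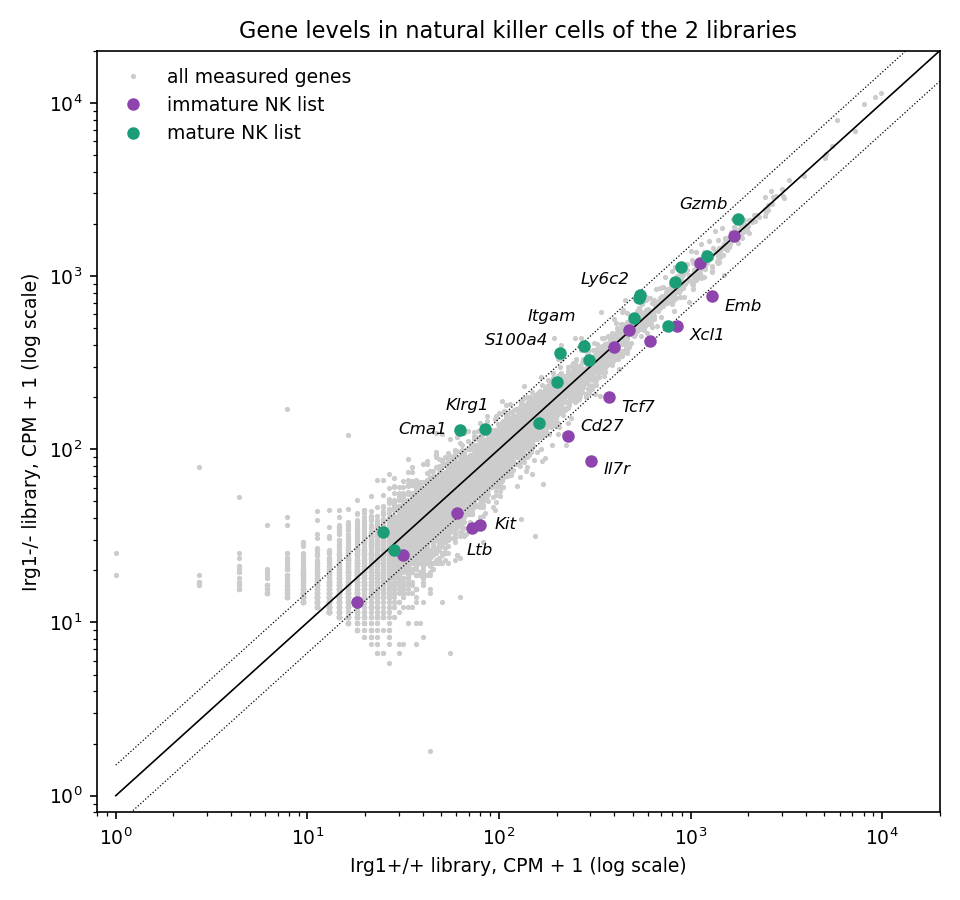
CPM + 1 of each measured gene in NK cells of the library labelled Irg1+/+ (x axis, log scale) and of that labelled Irg1-/- (y axis, log scale), with lines at equal levels (solid) and at 1.5-fold (dotted), and with the immature NK list in purple and the mature list in green. Il7r (302 and 84.1 CPM), Tcf7, Cd27, Emb and Xcl1 lie below the lower dotted line, and Cma1, S100a4 and Klrg1 above the upper one.

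The same was seen cell by cell at equal depth. Among NK cells thinned to 2000 UMIs, 40 of 172 had a UMI of Cd27 and none of Itgam, 23.3% (17.2 to 30.3), against 31 of 347, 8.93% (6.15 to 12.4). Cells with Itgam alone were 25.6% (19.2 to 32.8) and 41.2% (36 to 46.6), and cells with both were 5.81% and 8.36%, so most cells with either gene had only 1 of them. A UMI of neither was found in 45.3% and 41.5%, in which the stage cannot be read. At this depth Cd27 was in 29.1% and 17.3% of NK cells and in 0% and 2.17% of B cells, and Itgam in 31.4% and 49.6% of NK cells, 65.2% and 68.9% of macrophages and 17.2% and 17.4% of B cells. Without thinning, Cd27 was in 35.6% and 23.7% and Itgam in 42.9% and 54.6% of NK cells. Summed over the immature list a thinned cell held a mean of 14.7 (SD 7.67 over cells) and 11.8 (SD 6.16) UMIs, and over the mature list 15.8 (SD 10.3) and 18.9 (SD 9.80), so the cells of the libraries overlapped widely in both.

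**Figure D5:**
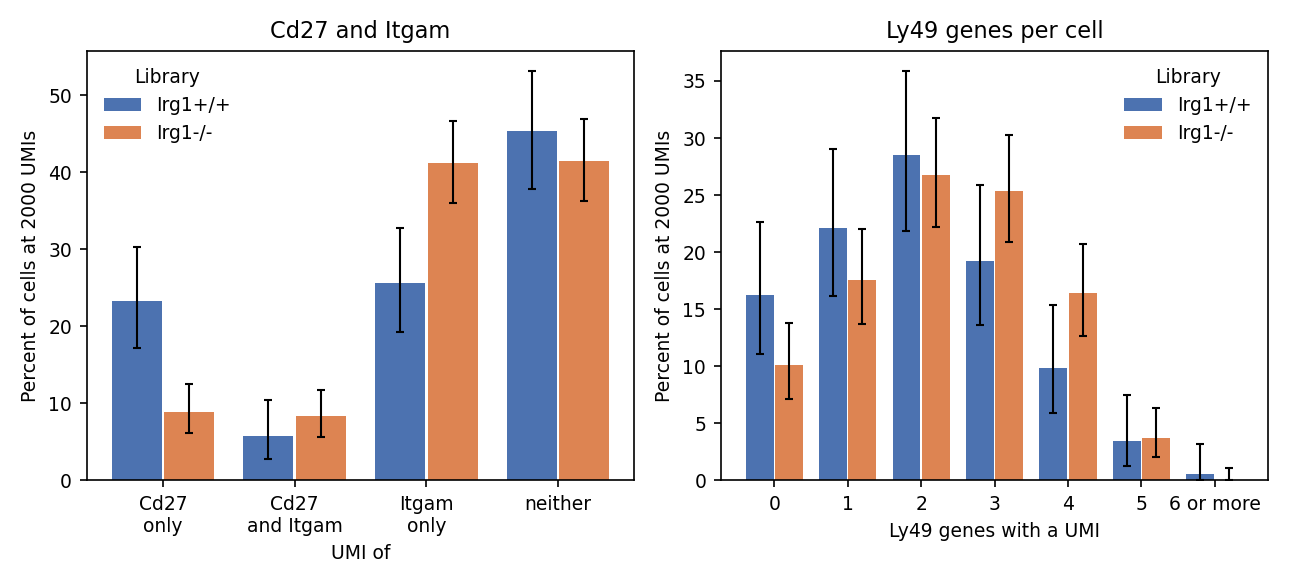
Left, percent of NK cells at 2000 UMIs (172 and 347 cells) with a UMI of Cd27 only, of Cd27 and Itgam, of Itgam only or of neither. Right, percent of the same cells by the number of Ly49 genes with a UMI, among them Klra8 and Klra4, which the rule used. Blue bars are the library labelled Irg1+/+, orange bars that labelled Irg1-/-, and black lines are exact binomial 95% intervals that cover counting error only; Cd27 alone is at 23.3% and 8.93%, and Itgam alone at 25.6% and 41.2%.

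A small set of cells held most of the Il7r UMIs. Cells with at least 2 UMIs of Il7r, a limit set after the values were seen, numbered 27 of 219, 12.3% (8.28 to 17.4), and 21 of 469, 4.48% (2.79 to 6.76). They were deeper than the rest, with median UMIs of 3377 and 3181 against 2475 and 2481.5. Gzma was lower in them in both libraries, at 4046 against 8760 CPM in the first and 2455 against 10337 in the second. No UMI of any Ly49 gene was found in 51.9% and 38.1% of them, against 7.29% and 6.03% of the rest, shares that the rule bears on, since it used Klra8 and Klra4. Serpinb9b stood at 32.9 and 68.6 CPM in them and at 223 and 461 in the rest. Rora, a transcription factor of innate lymphoid cells, was higher in them, with 548 and 302 CPM against 93.1 and 86.8, as were Ltb (219 and 110 against 44.5 and 29.2) and Itgb3 (362 and 192 against 134 and 54.1). Ikzf2 (Helios) had 175 and 151 CPM in them and 46.5 and 35.2 in the rest. Itga1 (CD49a) had 109.7 and 41.2 CPM in them against 18.2 and 36.1, and Cxcr3 164 and 109.7 against 40.5 and 37.8. Eomes, a gene of the rule, had 329 and 274 CPM against 477 and 423.

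Without these cells the difference between the libraries was smaller for some genes and about as large for others. Il7r itself, which chose the cells, was at -0.64 (-1.43 to 0.20) among cells with fewer than 2 of its UMIs. Rora was at -0.11 (-0.62 to 0.44) there, beside -0.72 in all NK cells, Ltb at -0.62 (-1.42 to 0.24), beside -1.08, and Lgals3 at -0.23 (-0.43 to -0.02), beside -0.56. In the same cells the log2 ratio was -0.99 for Tcf7, -0.91 for Cd27, -0.74 for Emb, -0.70 for Xcl1, -1.30 for Itgb3, 0.79 for Klrg1 and 1.05 for Serpinb9b. The median over the immature list was -0.62 without them. Of the list of ILC1 markers, which holds Il7r too, 4 of 13 measured genes (30.8%) were lower and 1 (7.69%) higher, beside 9.47% and 7.75% of all genes. Its median was -0.11, and Cxcr6 had 5 and 3 UMIs in all NK cells. Over all NK cells Itga1 had 32.5 and 36.4 CPM.

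Most Ly49 receptors lay within 1.5-fold. Of 9 measured genes 1 (11.1%), Klra6, with only 7 and 24 UMIs, was past 1.5-fold higher and none lower, beside 7.75% and 9.47% of all genes. The median was 0.47, although it was -0.23, with Klra6 at -0.89, in the 40 and 101 cells with no UMI of the Cd3 genes, Trac or C1q genes. Over all NK cells the count of higher genes was 3 with TMM factors or DESeq2's size factors, and 0 with the mean of each cell's CPM. Klra9 (Ly49I) had 442 (390 to 499.6) and 637 (594 to 683) CPM, a ratio of 0.52 (0.32 to 0.73), and Klra7 (Ly49G) had 439 and 618, a ratio of 0.49 (0.29 to 0.70). The activating receptor genes Klra8 (1030 and 1184 CPM) and Klra4 (798 and 899), which the rule used, were at 0.20 and 0.17, and Klra3 (Ly49C) at -0.09 (-0.40 to 0.23). A thinned cell held UMIs of 1.97 and 2.32 Ly49 genes on average, and the rule bears on these counts per cell, since it used Klra8 and Klra4. None was found in 16.3% (11.1 to 22.7) and 10.1% (7.13 to 13.7) of cells, and 4 in 9.88% and 16.4%.

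How often a cell held both of a pair of Ly49 genes is given as a description. Klra8 was found in 61.1% of the cells with Klra4 and in 29.0% of those without in the first library, and in 63.9% and 40.2% in the second, but the rule used both genes, which bears on how often they occur together. Klra9 was in 37.5% and 32.4% of cells with and without Klra7 in the first, and in 41.8% of both in the second. It was in 37.9% and 33.6% of cells with and without Klra3 in the first library and in 37.1% and 43.0% in the second, so these pairs outside the rule showed no common direction. These genes are close copies: of all stretches of 75 bases in their transcripts, 19.7% for Klra8 (mostly with the pseudogene Klra14-ps), 14.4% for Klra10, 12.1% for Klra9, 6.39% for Klra3 and 5.71% for Klra7 occur in another gene, against 0.342% for Klra4 and 0.237% for Klra1. Their levels are uncertain to that extent, as is that of Klrb1c, with 13.2% (mostly with Gm44511), while Gzma, Gzmb, Serpinb9b, Ncr1 and Klre1 shared no such stretch.

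Of the activating receptors, 1 of 16 measured genes (6.25%) was lower and none higher, beside 9.47% and 7.75% of all genes, with a median of 0.01. Klrk1 had 581 and 724 CPM, a ratio of 0.32 (0.14 to 0.50), Klrc2 277 and 375, a ratio of 0.44 (0.18 to 0.71), and Ncr1 409.9 and 405, a ratio of -0.02. Of 17 inhibitory receptors 4 (23.5%) were higher and 2 (11.8%) lower, with a median of 0.15. These counts were 1 and 2 with the mean of each cell's CPM, and 5 and 2 with TMM factors. Without cells with at least 2 UMIs of Il7r they were 2 and 0. Lair1 was at 0.96 (0.16 to 1.91) with 15 and 63 UMIs, and Klrc1 (NKG2A) at -0.33 (-0.59 to -0.06) with 328 and 262 CPM. Pdcd1 (PD-1) was at -1.08 (-2.05 to -0.11) with 20 and 20 UMIs. In the 40 and 101 cells with no UMI of the Cd3 genes, Trac or C1q genes, Pdcd1 was at 1.47. That value rests on only part of its 20 and 20 UMIs, and no interval was computed for it. Of 16 checkpoint and costimulatory genes 5 (31.25%) were lower and 2 (12.5%) higher, and the lower ones included Icos and Cd28, which are T cell markers as well. Among 21 genes of receptor signaling only Lat (-0.69) lay past 1.5-fold, while Tyrobp was at 0.15 (0.04 to 0.26) and Fcer1g at 0.21 (0.12 to 0.30).

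Cytotoxic granule genes lay within 1.5-fold for 18 of 19, and 1 (5.26%) was past 1.5-fold higher, beside 7.75% of all genes. Their median was 0.18, and the list summed to 18707 and 22146 CPM. Gzma was at 0.30 (0.25 to 0.35), Gzmb (1771 and 2135 CPM) at 0.27 (0.17 to 0.37), Prf1 at 0.28 (0.09 to 0.48), Nkg7, which helps granules to release, at 0.36 (0.25 to 0.46) and Ctsc, which activates granzymes, at 0.36 (0.10 to 0.62). In T cells the ratio was -0.15 for Gzma, -0.60 for Prf1 and -0.16 for Nkg7. Gzma was also higher in macrophages (1.04) and in all other cells (0.94), by more than in NK cells. Serpinb9b, a serpin gene related to the granzyme B inhibitor Serpinb9 (chr13:33027416-33041884), was the exception, with 193 (159 to 232) and 438 (402 to 477) CPM and a ratio of 1.18 (0.89 to 1.49). It had a UMI in 14% and 33.7% of thinned NK cells and in at most 2.68% of T cells, macrophages and B cells. Its ratio was also above 0 in T cells (1.37), macrophages (2.27) and all other cells (2.72). The last group held the cells that the T cell and C1q clauses had removed from the NK gate. Serpinb9 itself had 1720 and 1858 CPM, a ratio of 0.11 (0.00 to 0.22).

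Ccl5 was at 0.46 (0.41 to 0.52) in NK cells and -0.13 in T cells. Ccl3 and Ccl4, chemokines that draw myeloid cells, were at 0.18 (-0.01 to 0.39) and 0.09 (-0.03 to 0.22), and Ifng, the cytokine through which NK cells act on macrophages, at 0.11 (-0.17 to 0.41) with 243 and 263 CPM; in T cells Ifng was at -1.26. Tnf was lower, with 101 and 56.6 CPM and a ratio of -0.83 (-1.35 to -0.31). Over the 13 cytokine and chemokine genes 1 (7.69%) was higher and 2 (15.4%) lower, beside 7.75% and 9.47% of all genes, with a median of 0.09. Of 4 measured death ligand genes, which signal death to a target cell through its receptors, Tnf and Ltb were lower and none was higher, with a median of -0.44. Fasl (Fas ligand) had 210.1 and 273 CPM and a ratio of 0.38 (0.08 to 0.69), and Tnfsf10 (TRAIL) had 13 and 27 UMIs and a ratio of -0.05 (-1.03 to 1.05).

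The receptors that NK cells use for interleukin-15 differed little. Il2rb had 3078 and 2828 CPM, a ratio of -0.12 (-0.20 to -0.04), and Il2rg 819.8 and 774, a ratio of -0.08 (-0.24 to 0.08). Il2ra, the chain that raises affinity for interleukin-2, was at -1.55 (-2.62 to -0.54) on 21 and 15 UMIs, and Ifngr2 at 1.21 (0.23 to 2.49) on 9 and 46. Of 19 cytokine receptor genes 3 (15.8%) were lower and 2 (10.5%) higher, beside 9.47% and 7.75% of all genes. Among 29 transcription factors 4 (13.8%) were lower and 1 (3.45%) higher: Tcf7, Tox (-1.11, -1.77 to -0.46), Rora (-0.72, -1.12 to -0.32) and Ikzf2 (-0.67, -1.29 to -0.03) on one side, and Lef1 (0.75, 0.16 to 1.41) on the other. Eomes was at -0.14 (-0.35 to 0.09), Tbx21 at 0.28 (-0.02 to 0.59) and Irf8 at 0.19 (0.09 to 0.30). Of 24 homing and adhesion genes S1pr1 was lower (-0.91, -1.55 to -0.27) and Ccr7 higher (0.63, -0.05 to 1.41), although it was at -0.22 without the cycling cells.

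The highest ratios, among 3640 genes with at least 100 UMIs, came first from a pair of genes that differed in every group of cells. Gm47015 had 4 and 209 UMIs and Tpm3-rs7 9 and 149, with ratios of 4.46 (3.25 to 6.52) and 2.90 (2.01 to 4.13), beside 2.98 and 3.42 in T cells and 3.30 and 3.35 in macrophages. They were followed by Gda (1.43), Slfn4 (1.40), Ptpn4 (1.40), Oasl2 (1.28), Serpinb9b, Igha (1.17), Lst1 (1.14), Ptafr (1.06), Cma1, Ier3 (1.04), Cep192 (1.03), Higd1a (1.03) and Trib1 (1.03). Ptpn4, a tyrosine phosphatase, had 32.5 and 87.3 CPM in NK cells and ratios of 0.19 in T cells and 0.31 in macrophages. Part of the UMIs of some of these genes lay in few cells: 12 NK cells of the library labelled Irg1-/-, 2.56% of its NK cells, held 59 of 153 Slfn4 UMIs and 28 of 88 of Gda. These cells, here called myeloid-marker-rich, had over 1% of their UMIs in macrophage and monocyte markers (leaving out Ccr2 and Ly6c2), at least 5 UMIs of neutrophil and eosinophil markers (leaving out Il1b) or at least 3 UMIs over Siglech, Ccr9 and Ly6d, limits set after the values were seen. The library labelled Irg1+/+ had 2 of them. In the 40 and 101 cells with no UMI of the Cd3 genes, Trac or the C1q genes, Gda was at -0.054 and Lst1 at -0.40.

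The lowest ratios were those of Mmp12 (-2.31), Il7r, Gpnmb (-1.74), Itgb3 (-1.44, -1.89 to -0.997), Ahr (-1.10), Klf4 (-1.09), Ndrg1 (-1.06), Cd36 (-1.03), Snx6 (-1.02), Pi4ka (-0.99), Ccl2 (-0.99), Zeb1 (-0.98), Plin2 (-0.97), Slc7a1 (-0.94) and Cd27. Of these, Ahr and Slc7a1 (both 1.10) and Ndrg1 (0.14) had the other direction in those 40 and 101 cells, which were few, and no interval was computed there. Mmp12, a macrophage elastase, rested on 1 cell that held 59 of 90 UMIs in the library labelled Irg1+/+, and 1 cell held 28 of the 76 of Gpnmb. Itgb3, an integrin chain, had 169 and 62.3 CPM and a ratio of -0.12 in T cells, and the transcription factor gene Klf4 224 and 105 CPM beside 0.36 in T cells and 0.23 in macrophages.

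Some interferon-induced genes were higher in the library labelled Irg1-/-. Of 42 measured genes of the type I interferon response 12 (28.6%) were past 1.5-fold higher and 3 (7.14%) lower, beside 7.75% and 9.47% of all genes. Their median was 0.24, beside 0.15 in T cells, 0.40 in macrophages and 0.50 in all other cells. Slfn1 had 22.2 and 65.5 CPM, a ratio of 1.52 (0.71 to 2.53), Oasl2 49.5 and 122, a ratio of 1.28 (0.72 to 1.93), Isg15, a ubiquitin-like protein gene, 68.3 and 126, a ratio of 0.87 (0.38 to 1.42), and Ly6a (Sca-1) 266 and 437.5, a ratio of 0.71 (0.46 to 0.98). Rsad2 (viperin) went the other way, with 76.9 and 46.1 CPM and a ratio of -0.74 (-1.33 to -0.14), but it was at 0.11 in the 40 and 101 cells with no UMI of the Cd3 genes, Trac or the C1q genes. Of the Oasl2 UMIs, the 2 and 12 myeloid-marker-rich cells held 0 of 29 and 29 of 151. Macrophage and monocyte markers summed to 4304 and 5346 CPM in NK cells, and all 5 measured neutrophil and eosinophil markers were higher. For interferon gamma 5 of 32 genes (15.6%) were higher and none lower, with a median of 0.13. Gbp2, a guanylate-binding protein gene, had 212 and 329 CPM, and the class I genes H2-K1 and H2-D1 were at -0.06 and -0.02.

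Of 21 measured cell cycle genes 7 (33.3%) were past 1.5-fold lower in NK cells of the library labelled Irg1-/- and none higher, beside 9.47% and 7.75% of all genes. Their median was -0.45, beside 0.10 in T cells, -0.17 in macrophages and -0.27 in all other cells. Mcm5, part of the replication helicase, had 82.0 and 40.4 CPM, a ratio of -1.02 (-1.62 to -0.42), Cdk1 a ratio of -1.16 (-2.21 to -0.12) on 18 and 17 UMIs, and Mki67 -0.24 (-1.03 to 0.62). More abundant members were nearer 0, with 326 and 317 CPM and a ratio of -0.04 (-0.29 to 0.22) for Pcna, the sliding clamp of replication, 0.07 (-0.24 to 0.39) for Tubb5 and 0.15 (-0.17 to 0.49) for Hmgb2. Cells with at least 3 UMIs over 12 mitotic and S-phase genes were 19 of 219, 8.68% (5.30 to 13.2), and 16 of 469, 3.41% (1.96 to 5.48), with intervals that meet, beside 18.6% and 16.1% of T cells. At 2000 UMIs they were 5 of 172 and 2 of 347, too few to tell the levels apart beyond their intervals of 0.95% to 6.65% and 0.0699% to 2.07%. Of 22 glycolysis genes 6 (27.3%) were lower and none higher, with a median of -0.25 that was matched in T cells (-0.23), macrophages (-0.31) and all other cells (-0.34). The glucose transporter gene Slc2a1 had 137 and 74.4 CPM, a ratio of -0.88 (-1.32 to -0.43), and Gapdh 809.6 and 740.0.

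From cell to cell, genes differed widely in how evenly they were spread. The Fano factor (variance over mean of UMIs) at 2000 UMIs had a median of 1.08 over 3387 genes with a mean above 0.1, by the lower library. It was 10.5 and 11.7 for Ccl5, 11.1 and 9.93 for Gzma, 8.605 and 6.88 for Gzmb, 4.93 and 4.67 for Klra8, 4.41 and 4.94 for Ly6c2 and 4.004 and 3.95 for Xcl1. Hspa1b, a heat shock gene that handling can induce, was at 13.99 and 6.18, Ccl4 at 9.27 and 4.36 and Mmp12 at 10.4 and 1.04, all more uneven in the library labelled Irg1+/+, in which Hspa1b was above Gzma and Ccl5. Others were more uneven in the library labelled Irg1-/-, with 1.29 and 11.9 for the granzyme gene Gzmc, 1.94 and 9.69 for Hmox1, 1.83 and 8.26 for Lyz2 and 1.04 and 4.85 for Il1b. Of all 1981 Lyz2 UMIs of the NK cells of that library, before thinning, 2 cells held 342, and the 12 myeloid-marker-rich cells held 178 of the 493 of Il1b. Serpinb9b was at 3.29 and 3.25 and Emb at 3.70 and 3.23.

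Markers of other cell types were found in NK cells, at unequal levels in the libraries. Of 16 macrophage and monocyte markers 2 (12.5%) were higher and 1 (6.25%) lower in NK cells, beside 7.75% and 9.47% of all genes. They summed to 4304 and 5346 CPM, beside 26121 and 27853 in macrophages and 5564 and 4849 in B cells. Lyz2 had the most (1252 and 1602), with a UMI in 206 and 423 of the NK cells, and the 2 and 12 myeloid-marker-rich cells held 64 of its 733 UMIs in the one library and 669 of 1981 in the other. Lyz2 was among the markers that chose those cells, which bears on its share in them. All 5 measured neutrophil and eosinophil markers were higher, with a summed 236 and 584 CPM, most of it Il1b (210.1 and 399 CPM). S100a9 had 1 and 97 UMIs, of which 2 cells held 70. Of 9 dendritic cell markers 2 were higher, with H2-Ab1 at 1452 and 1900 CPM. Melanocyte markers were lower, with 3 of 3 measured genes past 1.5-fold and a summed 150.3 and 55.8 CPM; Dct had 61.5 and 12.9 CPM, and its ratio of -2.22 was also that in all other cells. Cd79a, Ms4a1 and Pax5 had no UMI, Igkc had 200 and 369 CPM, and single genes were measured for mast cells (Hdc, 17.1 and 34.8 CPM, a ratio that turned to -0.059 without the 2 and 12 myeloid-marker-rich cells) and for red cells and stroma (Pecam1, 132 and 95.4 CPM). Without the 2 and 12 myeloid-marker-rich cells, the median was -0.53 for the immature and 0.30 for the mature list, and the part of these RNAs in the other ratios was not tested.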

How the data were processed

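The deposited matrices held raw UMI counts per gene and cell for 2 libraries (BD Rhapsody, whole transcriptome, 3′ ends). Per the labels and methods, the authors removed low-quality reads and mapped the rest to the Ensembl mouse genome (GRCm38) by STAR in a UMI-tools pipeline, with CASAVA 1.8 also named among the tools. The strand setting was not given in the sources used here. Cells with under 10% mitochondrial UMIs were kept (all had over 200 genes), and mitochondrial genes were left out of totals. Counts were summed over the NK cells of each library and scaled per 1000000 UMIs (CPM). Log2 ratios used a pseudocount of 0.5 UMI, for genes with at least 20 UMIs. Intervals (95%) were exact Poisson for CPM, exact conditional binomial for ratios, Clopper-Pearson for shares and Newcombe for differences of shares, all for counting error only. No test was run, since each genotype had 1 library, and past 1.5-fold was the limit counted. The cells, gene lists and rules were chosen with earlier results of these data known. Genes were named by rule: the rule's genes and markers, the 20 highest over other cells, the 15 highest and 15 lowest ratios among genes with at least 100 UMIs and a UMI in 10% of NK cells of either library, the 2 most abundant and the 2 extreme members of each list, the 15 largest Fano factors, and Acod1; the genes set beside Il7r and those given by UMIs of single cells were chosen after their values were seen. NK cells held 585503 and 1236552 UMIs. Scripts ran in Python 3.11.15 with NumPy 2.4.6, SciPy 1.17.1 and pandas 2.3.3, with edgeR 4.0.16 and DESeq2 1.42.0 for alternative scale factors alone, and were tested on simulated data. Alternatives changed the clauses, the depth, the scale, the pseudocount and the minimum.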

Additional observations from a re-analysis of the deposited data

How the results depend on the processing

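The share of NK cells was higher in the library labelled Irg1-/- under all 13 other settings, with ratios from 1.99 to 2.79, but its size was not stable. In the order of the library labelled Irg1+/+, that labelled Irg1-/- and their difference in points, it was 1.96%, 5.45% and 3.50 with the Cd3 genes and Trac at 0 UMIs, 1.00%, 2.57% and 1.57 with the C1q genes at 0, 6.24%, 14.6% and 8.40 without cells over 2 times the NK median UMIs (which left 212 of 3397 and 451 of 3081 cells, so that the share rose with the smaller number of kept cells), and 4.89%, 10.7% and 5.85 with no C1q clause. It was 5.06% and 10.3% with no clause on Cd3 genes and Trac, and 4.92% and 9.77% with each cell thinned to 2000 UMIs. In the library labelled Irg1-/- it was 8.97% at 2 UMIs of the NK genes, 7.21% at 5 UMIs and 7.34% without Klra8 and Klra4. The settings with no C1q clause, with no clause on Cd3 genes and Trac, without cells with at least 2 Il7r UMIs and without myeloid-marker-rich cells were chosen after seeing the data.

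Counts of genes past 1.5-fold moved with the limits themselves. Against 613 higher and 749 lower, there were 203 higher (999 lower) with a pseudocount of 5 UMIs, 1746 and 2810 with no minimum, 102 and 96 at 100 UMIs or more, 198 and 201 past 2-fold and 29 and 32 whose whole interval lay past 1.5-fold. In the 40 and 101 cells with no UMI of the Cd3 genes, Trac or C1q genes 454 were higher and 456 lower, of fewer measured genes. The median of the immature list lay between -0.74 and -0.47 and that of the mature list between 0.20 and 0.35 under all 12 alternatives. Of the 15 genes with the largest Fano factor, 9 were among the first 15 without thinning. Single genes turned direction mostly in those 40 and 101 cells, where the log2 ratio was 1.10 for Ahr and for Slc7a1, 1.47 for Pdcd1, 0.14 for Ndrg1, 0.11 for Rsad2, -1.04 for Ccr7, -0.054 for Gda, -0.85 for Hdc, -0.89 for Klra6 and -0.40 for Lst1. Ccr7 was also at -0.22 without cycling cells, -0.43 without cells over 2 times the NK median UMIs and -0.22 without cells with at least 2 Il7r UMIs, and Hdc at -0.059 without myeloid-marker-rich cells. The cause was not tested, those cells were few, and the counting error of these turned ratios was not computed. No paired analysis was possible because each genotype had 1 library. Depth limits genes with few UMIs, whose intervals span more than 1.5-fold.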
